A study of Mus musculus with 40 samples.

Results

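The 9 genes described here encode the calcium machinery of the mouse egg: the release channel Itpr1, the entry channels Trpm7, Cacna1h and Orai1, the store sensor Stim1, the pumps Atp2a2 and Atp2b1, and the calcium-reading enzymes Camk2g and Ppp3ca. They were chosen by name, without a filter on their measured values, from 11323 genes that appear in at least 1 of 8 tables of RNA levels. The choice was made with earlier results of these data known. All 9 were found, but not in every table. Itpr1, Camk2g, Trpm7, Cacna1h, Orai1 and Atp2a2 were listed in all 8 tables. Atp2b1 was listed in all 4 total RNA tables and in the 2 polysomal tables without denuded oocytes, Ppp3ca in the 4 total RNA tables and in none of the polysomal ones, and Stim1 in a single total RNA table.

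At fertilization the sperm delivers a phospholipase that makes inositol trisphosphate, which opens the inositol trisphosphate receptor in the endoplasmic reticulum and starts a train of calcium waves. The reticulum refills through its own calcium pump and through entry channels of the plasma membrane, while a plasma membrane pump removes calcium from the cell. Calmodulin-dependent kinase and calcineurin are enzymes that read calcium, and the kinase starts the release of the egg from meiotic arrest. The mouse egg is transcriptionally silent at this time, so the RNA for these proteins is stored, and control lies largely in which stored messages enter polysomes.

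RNA was measured in 5 kinds of mouse cell: denuded oocytes matured in vitro (IVM), oocytes that matured in vitro while still enclosed by their cumulus (COC), in vivo matured oocytes (IVO), pronuclear zygotes from in vitro maturation and fertilization (IMZ), and pronuclear zygotes from in vivo maturation and fertilization (IVZ). Each gave 4 libraries of total RNA and 4 of polysomal RNA (messages that carry several ribosomes), 10 groups in all. The labels name no strain, age or cell number, and give neither the animals or collections behind the replicates nor the kind of in vitro matured oocyte behind the IMZ zygotes. The p-values therefore measure the spread between these libraries, which may be technical in part.

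Levels are given in RPKM, reads scaled by gene length and by library size, so they can be compared between genes as well as between libraries. An RPKM is a share of the library, so fewer cells of a type and less RNA per cell cannot be told apart, and neither can a change in a message from a change in the rest of the RNA. Depth recovered from the values was 46.6 to 63.2 M reads in the 20 total RNA libraries and 3.15 to 17.3 M in the 10 polysomal libraries for which it could be recovered; it is unknown for the other 10. All 10 oocyte markers, among them Zp3, Gdf9 and Bmp15, were listed in every group. Of 18 cumulus and granulosa markers, 2 to 3 were listed in total RNA. Cyp19a1 and Nr5a2 were listed in each group, at a summed 12.02 to 15.8 RPKM per library. Grem1 was listed in COC and IVO only, at 1.31 ± 0.504 and 0.346 ± 0.133 RPKM (SD), higher in COC. Whether cumulus RNA remained in the COC libraries was not tested. Of 8 sperm markers, Prm2 alone was listed in total RNA, at 5.22 to 13.4 RPKM, in oocytes as well as zygotes. The authors marked 2 polysomal libraries, IVM replicate 1 and IVZ replicate 1, as excluded from their own analysis. Some total RNA libraries stood apart in the members themselves. In IVO, replicates 1 and 3 were below replicates 2 and 4 in Itpr1, Cacna1h, Orai1, Atp2a2 and Ppp3ca and above them in Camk2g and Atp2b1. COC replicate 3 had the lowest value of its group in Itpr1, Cacna1h, Orai1, Atp2a2, Atp2b1 and Ppp3ca and the highest in Camk2g.

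The messages themselves differ in their 3′ ends, shown here because the tail that stored oocyte messages gain or lose in the cytoplasm is controlled there. A cytoplasmic polyadenylation element (searched as TTTTAT or TTTTAAT, sense strand) lay in the last 100 bases of 2 members, the 2 pumps, against 17.8% of 19335 mouse transcripts with a 3′ untranslated region that long. The nuclear polyadenylation signal (AATAAA or ATTAAA) lay there in every member but Ppp3ca, against 78.5% of transcripts. The windows below run 5′ to 3′ on the sense strand, from 1 GENCODE M21 transcript per gene (build GRCm38), with the motif in capitals.
Atp2a2, element starting 90 bases from the end: gtctaatgtaTTTTATtgtaacagacattg
Atp2b1, element starting 75 bases from the end: agccactgagccTTTTATtatttgtctatt
Orai1, signal: aaaagaaaccttcagggatactaATTAAAa
Trpm7, signal: tctttaaaagaaATTAAAtttattcttgtt
Itpr1, signal: ctaaaaatatttAATAAAcgatgcagaatc
In the Orai1 transcript the signal began 7 bases from the annotated end, in Trpm7 22 and in Itpr1 20. A match is a description of the annotated sequence; the end used in these cells was not measured here, and no match in this window says nothing of sites elsewhere.

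In total RNA the members spanned a wide range of levels, and the order of their means was the same in the 5 cell types except that Cacna1h and Orai1 changed places in IMZ. The reticulum pump Atp2a2 and the kinase Camk2g were the most abundant: group means were 110 to 140 RPKM for Atp2a2 and 108 to 124 RPKM for Camk2g, above at least 96.4% of the genes listed in each group. Itpr1 stood at 24.3 to 26.0 RPKM, Orai1 at 18.5 to 21.3 RPKM, Cacna1h at 16.7 to 20.4 RPKM and Atp2b1 at 13.4 to 16.1 RPKM. Trpm7 was lower, at 3.54 to 6.13 RPKM, and the calcineurin catalytic subunit Ppp3ca lower still, at 1.17 to 1.82 RPKM. Stim1, the reticulum sensor that opens Orai1, was listed for IVM and COC alone, at 0.462 ± 0.041 and 0.282 ± 0.068 RPKM (SD, n = 4). No table holds a value below 0.2 RPKM in any of its 8 libraries, so the tables that omit Stim1 give no level for it. Every IVM and COC library held it above 0.2 RPKM. If that threshold alone decided the listing, some IVO library and some zygote library lay below it. Between the 5 groups the members moved little: the highest group mean was 1.07 times the lowest for Itpr1, 1.15 times for Camk2g and for Orai1, 1.196 times for Atp2b1, 1.22 times for Cacna1h, 1.27 times for Atp2a2, 1.55 times for Ppp3ca and 1.73 times for Trpm7. For these 8 genes, each group's range of libraries overlapped that of the next group in the order of means.

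**Figure D1:**
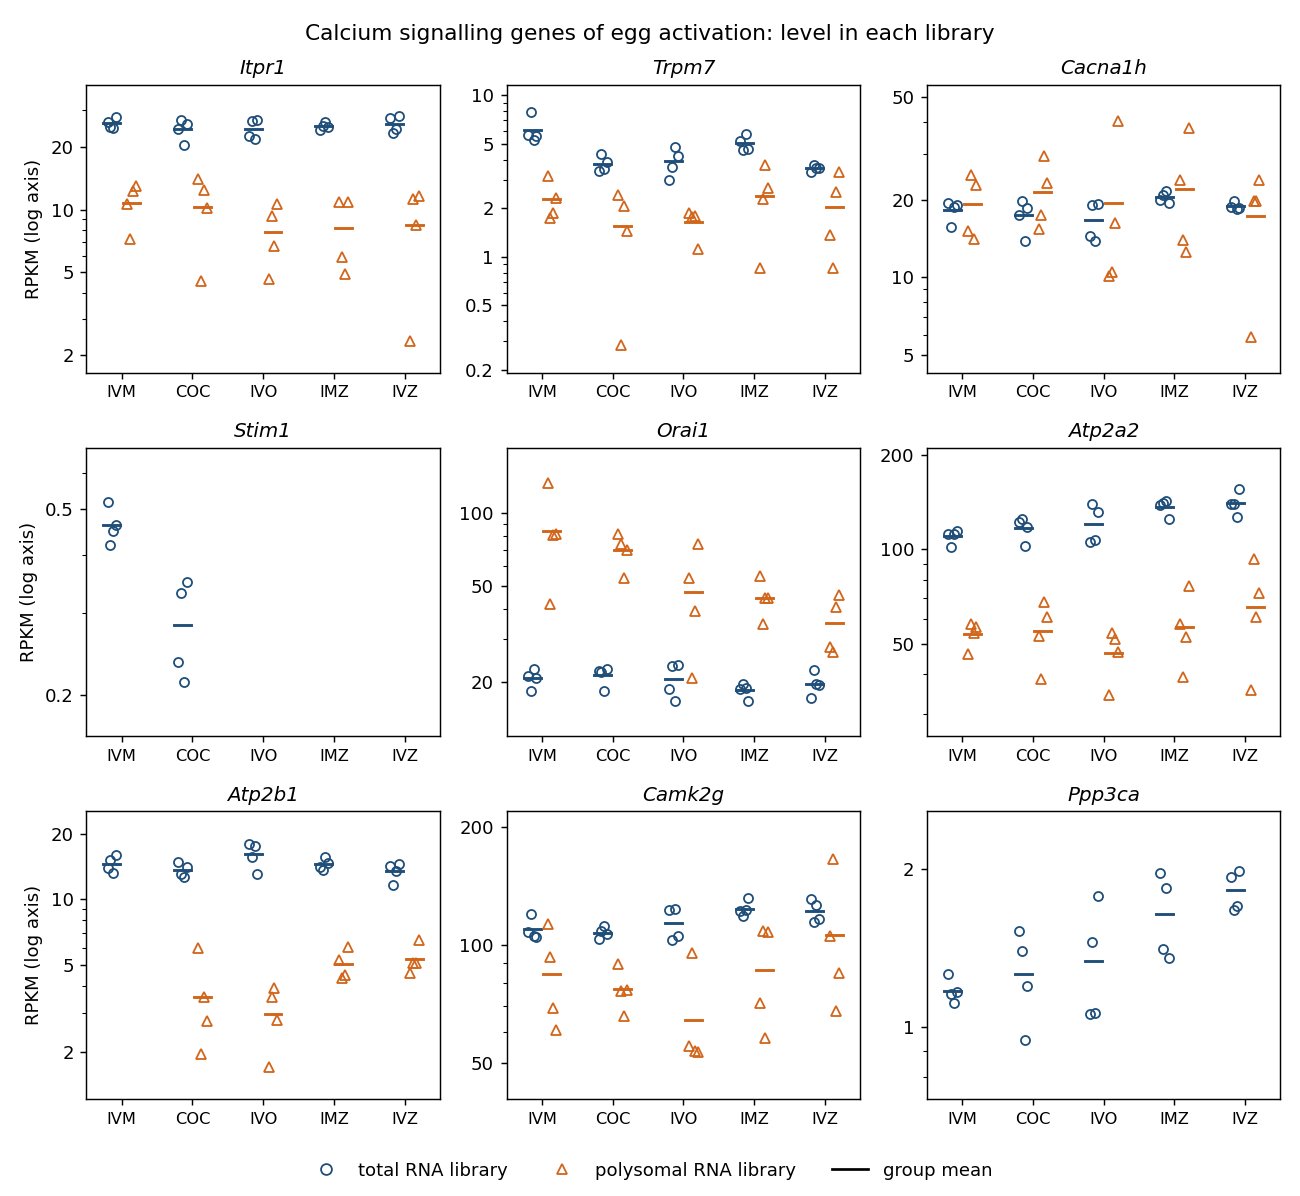
RPKM (log axis) of the 9 genes in each library, by cell type; circles are total RNA, triangles polysomal RNA, and bars group means. Orai1 is the gene whose polysomal means (35.1 to 84.3 RPKM) lie above its total RNA means in every cell type, and Stim1 and Ppp3ca have no polysomal values.

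The design asks first whether maturation in vitro changes stored messages relative to maturation in vivo. Trpm7, a channel fused to a kinase that carries divalent ions into the egg, was the 1 member called in total RNA here. It was higher by value in denuded in vitro oocytes than in either other oocyte group, and it passed the test as higher in in vitro than in in vivo zygotes. Stim1 had a ratio of similar size between IVM and COC and was not called; the other 7 members were not called in any of the 4 comparisons.

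In IVM oocytes Trpm7 measured 5.69, 7.87, 5.33 and 5.64 RPKM in the 4 total RNA libraries, in COC oocytes 3.39, 4.36, 3.53 and 3.86 RPKM, and in IVO oocytes 2.98, 3.58, 4.83 and 4.24 RPKM. The IVM libraries lay above all COC and all IVO libraries, with replicate 2 far above the other 3, and COC and IVO overlapped. On the log2(RPKM + 1) scale the difference was 0.54 ± 0.14 (SE) for IVM against IVO and 0.57 ± 0.12 for IVM against COC, with limma adjusted p-values of 0.19 and 0.15, so neither was called at 0.05. Higher levels without overlap were seen for 5.56% of all genes in the first comparison and 3.55% in the second. COC and IVO differed by -0.03 ± 0.12, with an interval of -0.30 to 0.25. These calls depend on the test: from the p-values in the authors' deposited table, adjusted here, Trpm7 passed in both, at 0.032 for IVM against IVO and 0.0016 for IVM against COC.

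In zygotes Trpm7 measured 5.21, 4.58, 5.74 and 4.64 RPKM in IMZ and 3.35, 3.69, 3.55 and 3.56 RPKM in IVZ. Every IMZ library lay above every IVZ library. The ratio of the means was 1.43 and the difference 0.41 ± 0.08 on the log2(RPKM + 1) scale, with an adjusted p of 0.035 (limma), 1 of 8 members called, where 1.66% of the 10824 genes tested were called, 0.508% of all genes higher and 1.15% lower in IMZ. Higher levels without overlap were seen for 4.65% of genes. The call was fragile: it was kept on leaving out IMZ replicate 4 or IVZ replicate 2 and lost on leaving out any of the other 6 libraries, with adjusted p-values of 0.028 to 0.11 and differences of 0.36 to 0.45. The authors' deposited table gave a log2 fold change of 0.50 for the same comparison, and its p-value, adjusted here, was 0.00013.

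Stim1, near the lowest listed level of 0.2 RPKM and with about 116 to 270 reads per library, measured 0.518, 0.419, 0.449 and 0.464 RPKM in IVM and 0.235, 0.331, 0.213 and 0.349 RPKM in COC. The 2 groups did not overlap, as was so for 3.55% of all genes higher in IVM than in COC, and the ratio of means was 1.64. The adjusted p was 0.37, so the gene was not called. The difference on the log2(RPKM + 1) scale, 0.19 ± 0.05, understates a change at so low a level; with a pseudocount of 0.1 it was 0.57 ± 0.15, at an adjusted p of 0.33.

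For Itpr1, Cacna1h, Orai1, Atp2a2, Atp2b1, Camk2g and Ppp3ca none of the 28 differences between in vitro and in vivo cells, or between IVM and COC, was called in total RNA; they lay between -0.22 and 0.13. The largest was that of Atp2b1, the plasma membrane pump, at 13.6 ± 0.985 RPKM in COC and 16.1 ± 2.22 RPKM in IVO (SD, n = 4), a difference of -0.22 with an interval of -0.45 to 0.01 and an adjusted p of 0.71. The 95% intervals of the 28 differences reached no further than -0.45 and 0.41 on the log2 scale. Few genes of any kind were called here: 0.509% in IVM against IVO, 0.00911% in COC against IVO and 0.0448% in IVM against COC.

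**Figure D2:**
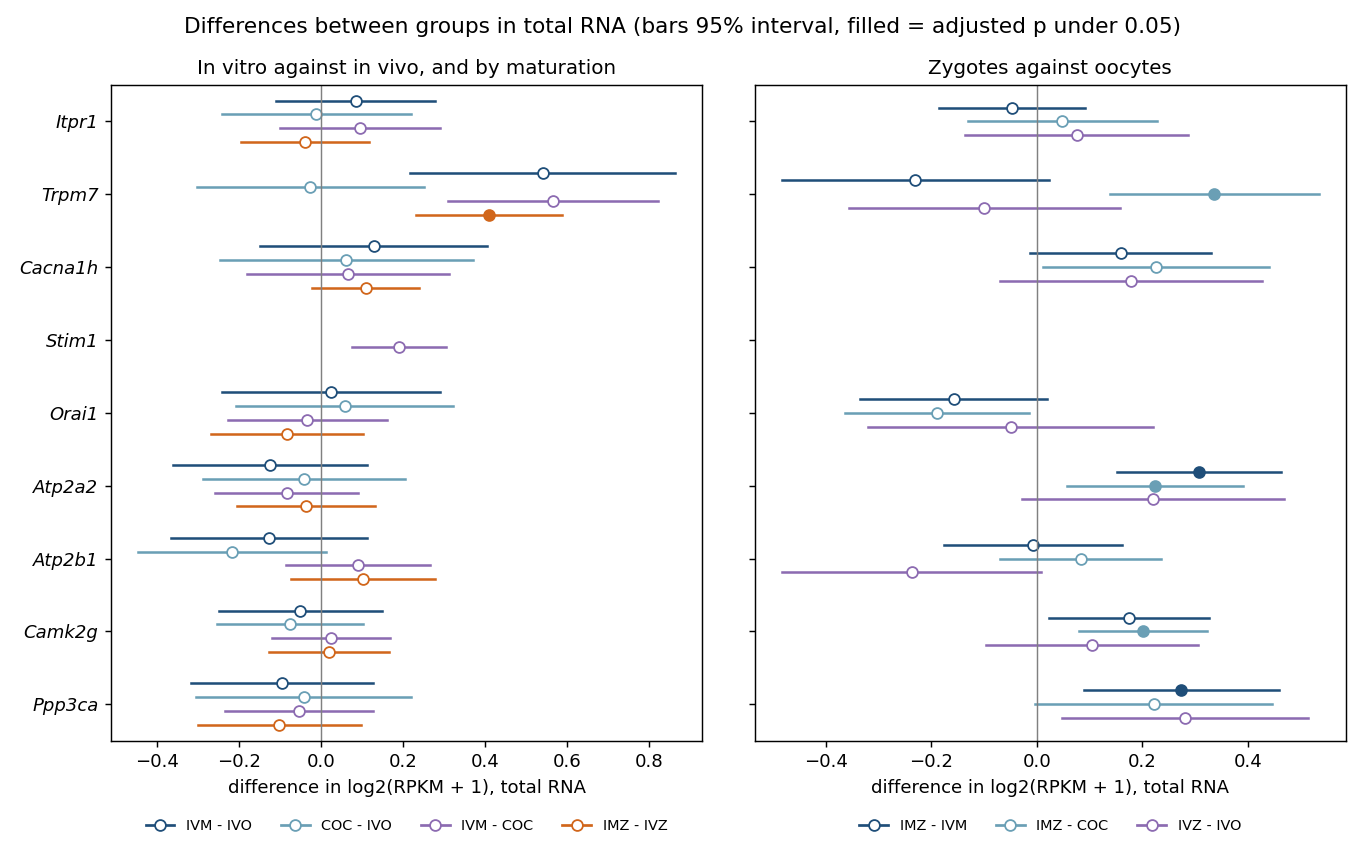
Differences in log2(RPKM + 1) of total RNA between groups for each gene, with 95% intervals; filled points have an adjusted p under 0.05. On the left, in vitro against in vivo cells and IVM against COC, only the Trpm7 point for IMZ against IVZ (0.41) is filled; on the right, zygotes against oocytes, the 5 filled points belong to Atp2a2 (2), Trpm7, Camk2g and Ppp3ca and lie between 0.20 and 0.34.

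In the polysomal fraction no member was called in any of the 4 comparisons, and neither was any other gene (0%), although 152, 394, 223 and 360 genes had an unadjusted p under 0.05 in IVM against IVO, COC against IVO, IVM against COC and IMZ against IVZ. Orai1 had the largest differences among the members: 0.86 ± 0.44 in IVM against IVO and 0.69 ± 0.34 in COC against IVO, with intervals of -0.10 to 1.81 and -0.04 to 1.41. The log2 fold changes deposited by the authors were smaller, 0.37 and 0.36. Orai1 was highest in IVM replicate 1, the library the authors excluded, at 133 RPKM, with the other IVM libraries at 41.8 to 81.6 RPKM. From the p-values in the authors' deposited tables, adjusted here, no member passed in this fraction, and 12, 25, 0 and 163 genes did. The change of the polysomal share with condition, tested as an interaction of condition and fraction, called no member and no gene in any of the 4 comparisons, with 167, 384, 266 and 311 genes at an unadjusted p under 0.05 in the same order. For Orai1 the interaction was 0.83 ± 0.49 in IVM against IVO, with an interval of -0.19 to 1.85, and 0.58 ± 0.45 without the library the authors excluded. Differences of that size were not resolved at this spread, and the data do not show that the conditions act alike on polysomal loading.

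Zygotes were then compared with oocytes, and calls were more common: 16.2% of genes were called in IVZ against IVO, 36% in IMZ against IVM and 37.2% in IMZ against COC. The last 2 comparisons share the IMZ libraries. No member was called lower in the 3 total RNA comparisons, in which 14.1%, 27.2% and 26.2% of all genes were; Orai1 was so only when IVM replicate 2 or COC replicate 3 was left out. Called higher were 0 of 8 members in IVZ against IVO, 2 of 8 in IMZ against IVM and 3 of 8 in IMZ against COC, beside 2.1%, 8.8% and 11% of all genes. The summed level of the 10 oocyte markers was 3095 to 3864 RPKM in the oocyte libraries and 1872 to 2385 RPKM in the zygote libraries. The markers did not move alike. Means of Zp1, Zp2, Zp3, Gdf9, Oosp1 and Mos were lower in both zygote groups than in every oocyte group. Those of Bmp15 and Kit were higher, and those of Nlrp5 and Oog1 lay among the oocyte means or above them in part. Gdf9, the largest, had means of 1191 to 1459 RPKM in oocytes and 555 to 642 RPKM in zygotes. The part of the lower sum in the rise of other shares was not tested.

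Atp2a2, the pump that refills the store between calcium waves, measured 112, 102, 112 and 114 RPKM in IVM, 123, 125, 102 and 118 RPKM in COC, and 139, 141, 142 and 125 RPKM in IMZ. The IMZ libraries lay above all IVM libraries and overlapped with COC at the top of its range. The difference was 0.31 ± 0.07 against IVM (adjusted p = 0.0066, limma), kept whichever library was left out, and 0.22 ± 0.08 against COC (adjusted p = 0.038). The latter was lost without COC replicate 3 or 4 or IMZ replicate 1, 2 or 3, with adjusted p-values of up to 0.095. The in vivo pair had a similar value, 0.22 ± 0.11, with an adjusted p of 0.23; its IVO libraries ranged from 106 to 140 RPKM and its IVZ libraries from 126 to 156 RPKM.

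Camk2g, the kinase whose calcium-bound form starts the exit from meiosis, measured 104, 108, 112 and 107 RPKM in COC and 122, 119, 123 and 132 RPKM in IMZ, with no overlap. The difference was 0.20 ± 0.05 (adjusted p = 0.015, limma) and was called whichever library was left out. Against IVM it was 0.18 ± 0.07 with an adjusted p of 0.069. Calcineurin's Ppp3ca measured 1.26, 1.15, 1.11 and 1.16 RPKM in IVM and 1.96, 1.404, 1.84 and 1.35 RPKM in IMZ, again with no overlap. The difference was 0.27 ± 0.08 (adjusted p = 0.026, limma) and lost its call without IMZ replicate 1 or 3 or IVM replicate 3 or 4, reaching 0.069. In IVZ against IVO it was 0.28 ± 0.10, with an adjusted p of 0.10, which fell to 0.027 without IVO replicate 4.

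Trpm7 was higher in IMZ than in COC, by 0.34 ± 0.09 (adjusted p = 0.013, limma), and called whichever library was left out. Against IVM, the oocyte group in which it was high, the difference was -0.23 ± 0.11 with an adjusted p of 0.14. Itpr1 was called in none of the 3 comparisons, with differences of -0.05 to 0.08 in the 3 comparisons and intervals within -0.19 and 0.29. Without overlap, higher levels were seen for Atp2a2 and Ppp3ca in IMZ against IVM and for Camk2g and Trpm7 in IMZ against COC, where 9.56% and 11.3% of all genes did so. In polysomal RNA no member was called in the 3 zygote comparisons, in which 0.449%, 0.537% and 3.98% of genes were. Orai1 was lower by value, at -0.81 ± 0.35 in IMZ against IVM and -0.64 ± 0.25 in IMZ against COC, with limma adjusted p-values of 0.40 and 0.17. The IVM libraries here include the one the authors excluded, which held the highest Orai1 value, 133 RPKM. Atp2b1 was higher in all 4 polysomal IVZ libraries than in all 4 IVO ones, which 4.79% of genes were, at 5.34 ± 0.838 against 2.99 ± 0.978 RPKM, with an adjusted p of 0.42.

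The fraction itself was compared within each cell type, to ask which of these messages take a larger share of polysomal than of total RNA. Orai1 was higher in polysomal RNA in all 5 cell types, and Itpr1, Atp2a2 and, where it was listed, Atp2b1 were lower, although Atp2b1 was not called in any group, and was above 0 in IMZ and IVZ, once the trends on gene length and GC content were both removed. Trpm7 was lower in 4 and Camk2g in 3 of the 5, directions that flip for Trpm7 when the trend on GC content is removed and for Camk2g in COC and IMZ when that on gene length is, while Cacna1h was called in none. Calls were common in these comparisons: 53.9% in IVM, 67.8% in COC, 59.1% in IVO, 61.1% in IMZ and 41% in IVZ, of which more were lower than higher. The members called lower were 3 of 6 in IVM, 5 of 7 in COC, IVO and IMZ, and 3 of 7 in IVZ, beside 38.9%, 44.3%, 45.2%, 46% and 30.1% of all genes. The single member called higher, Orai1, stood beside 14.9%, 23.4%, 13.9%, 15.1% and 10.9%. The median of all genes was itself shifted, by -0.50, -0.40, -0.55, -0.51 and -0.38 in the order IVM, COC, IVO, IMZ, IVZ, so each value below is to be read against it. Shares and medians here cover only genes listed in both fractions: 5167 in IVM, 7596 in COC, 7667 in IVO, 6324 in IMZ and IVZ. Genes too low to be listed in polysomal RNA are not among them.

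Orai1, the pore of store-operated entry, measured 133, 41.8, 80.7 and 81.6 RPKM in the polysomal libraries of IVM against 21.2, 18.3, 22.7 and 20.9 RPKM in total RNA. In COC its polysomal values were 81.9, 74.0, 53.5 and 69.9 RPKM, against 18.4 to 22.6 RPKM in total RNA. In IVO they were 53.5, 20.7, 39.4 and 74.0 RPKM, in IMZ 54.8, 34.6, 44.2 and 44.5 RPKM, and in IVZ 27.8, 26.6, 40.6 and 45.6 RPKM. The polysomal libraries lay above all total RNA libraries in IVM, COC, IMZ and IVZ, as did those of 14%, 20.6%, 13.8% and 11.5% of genes. In IVO, polysomal replicate 2 lay among the total RNA libraries.

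The ratio of the Orai1 means, polysomal over total, was 4.06 in IVM, 3.28 in COC, 2.29 in IVO, 2.41 in IMZ and 1.79 in IVZ. The log2 differences were 1.86 ± 0.31, 1.66 ± 0.16, 1.03 ± 0.33, 1.21 ± 0.18 and 0.77 ± 0.23, with limma adjusted p-values of 0.0016, 1.3e-05, 0.020, 0.00019 and 0.023. The IVO call was lost without polysomal replicate 1 or 4 or total replicate 3, and the IVZ call without total replicate 1, 3 or 4, with adjusted p-values of up to 0.063 and 0.078. Under a scaling that centres the 2 fractions on each other (median of ratios) the Orai1 differences were larger, from 1.15 to 2.35, and called in all 5. Without the libraries the authors excluded they were 1.61 in IVM and 0.87 in IVZ, and still called.

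Itpr1, the release channel, measured 10.7, 7.22, 12.3 and 13.03 RPKM in polysomal RNA of IVM against 24.7 to 27.8 RPKM in total RNA, and in IVZ 2.34, 11.2, 8.46 and 11.7 RPKM against 23.4 to 28.0 RPKM. The lowest of these was the IVZ library that the authors excluded. No polysomal library reached a total RNA library of the same cell type in any of the 5, a pattern shared by 40%, 42.7%, 42.4%, 44.4% and 34.1% of genes. The log2 differences were -1.22 ± 0.22 in IVM, -1.252 ± 0.28 in COC, -1.58 ± 0.26 in IVO, -1.58 ± 0.25 in IMZ and -1.68 ± 0.40 in IVZ, called in each (limma adjusted p of 0.00027 to 0.0085). Centring the fractions left -0.75 to -1.33, still called in each.

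Both pumps were lower in polysomal RNA. Atp2a2 measured 46.4, 57.8, 54.1 and 56.5 RPKM in IVM, against 102 to 114 RPKM in total RNA, and ranged from 34.4 to 92.9 RPKM over all 20 polysomal libraries, against 102 to 156 RPKM in total RNA. The differences lay between -1.36 ± 0.21 in IVO and -1.03 ± 0.15 in IVM and were called in all 5 groups (limma adjusted p of 0.00022 to 0.0075), as they were when the fractions were centred, at -0.53 to -0.77. Atp2b1 measured 5.96, 1.96, 3.57 and 2.77 RPKM in COC and 1.70, 3.55, 3.92 and 2.80 RPKM in IVO, against 12.6 to 14.8 and 13.1 to 18.0 RPKM in total RNA. It was lower by 1.75 ± 0.26 log2 units in COC, 2.12 ± 0.25 in IVO, 1.36 ± 0.19 in IMZ and 1.19 ± 0.22 in IVZ, each called (limma adjusted p of 7.3e-05 to 0.0027). The polysomal tables with IVM did not list Atp2b1, though each COC and IVO polysomal library held it at 1.70 RPKM or more. If the threshold of 0.2 RPKM alone decided the listing, some IVM polysomal library lay below it.

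For the other channels and the kinase, the calls depended on the scaling. Trpm7 fell by 1.13 ± 0.22 log2 units in IVM, 0.998 ± 0.29 in COC, 0.89 ± 0.21 in IVO and 0.91 ± 0.27 in IMZ (limma adjusted p of 0.0033 to 0.012), and measured -0.66 ± 0.28 in IVZ (adjusted p = 0.083). Once the fractions were centred it was called in IVM alone, at -0.74. Its polysomal libraries ranged from 0.283 to 3.69 RPKM. Camk2g fell by 0.48 ± 0.12 in COC, 0.85 ± 0.23 in IVO and 0.56 ± 0.21 in IMZ (limma adjusted p of 0.0051, 0.0073 and 0.036), and no call was left once the fractions were centred, with values of -0.21 to 0.11. The IMZ call was kept only without polysomal replicate 2 or 4, with adjusted p-values of up to 0.099, and in IVM, where Camk2g measured -0.42 ± 0.21 (adjusted p = 0.12), it was called at -0.57 without the polysomal library the authors excluded. Cacna1h, a channel of the T type, differed by -0.27 to 0.25 and was not called; centred, it was above 0 in all 5 groups, at 0.10 to 0.66, and called in COC. Its polysomal libraries ranged from 5.88 to 40.5 RPKM against 13.9 to 21.5 RPKM.

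Gene length and base composition moved with the fraction across all genes. In IVO the median polysomal minus total difference went from 0.62 in the shortest 10% of genes to -1.07 in the longest 10%, and from -1.30 in the 10% of lowest GC content to 0.40 in the 10% of highest. The members span both scales. Orai1 is the shortest, with 2295 exonic bases and a GC content of 58.6%, while Itpr1 has 18319 exonic bases, Atp2b1 15218 and Trpm7 11315, the latter with a GC content of 40.1%. Values were therefore recomputed after removing each library's trend on length, on GC content, or on both in turn.

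Orai1 stayed above 0 in all 5 groups under each removal. With the length trend removed it was 0.61 to 1.62 and called in 4 of 5 groups, with the GC trend removed 0.62 to 1.33 and called in 5, and with both removed 0.30 to 0.95 and called in 3, IVM, COC and IMZ. Atp2a2 stayed below 0 in all 5 groups under each, at -0.40 to -0.94, and was called in 4, 5 and 4 of 5 groups; it is of ordinary length, 6081 exonic bases, and its GC content is 50.8%. No other member was called in 3 or more groups under each of the 3 removals. Camk2g, called in 3 of 5 groups as deposited, was called in 0 under each removal.

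Itpr1 stayed below 0 under each removal and was called in 5 of 5 groups with the GC trend removed. It was called in 1 group, IMZ, once length was removed, alone (-0.57) or with GC content (-0.55). Atp2b1 was called in 2 of 4 groups with length or GC content removed, and in none with both. Trpm7 turned: with the GC trend removed it was above 0 in all 5 groups, at 0.082 to 0.38, and called in none, and with both trends removed it was above 0 in all 5 groups, at 0.42 to 0.75, and called higher in COC (0.67) and IVO (0.75). Cacna1h, long but rich in GC, was above 0 with length removed, at 0.49 to 1.07 and called in 3 groups, below 0 with GC content removed, at -0.34 to -0.58, and not called with both removed. The part of length and GC content in the differences of single genes was not tested beyond these removals.

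**Figure D3:**
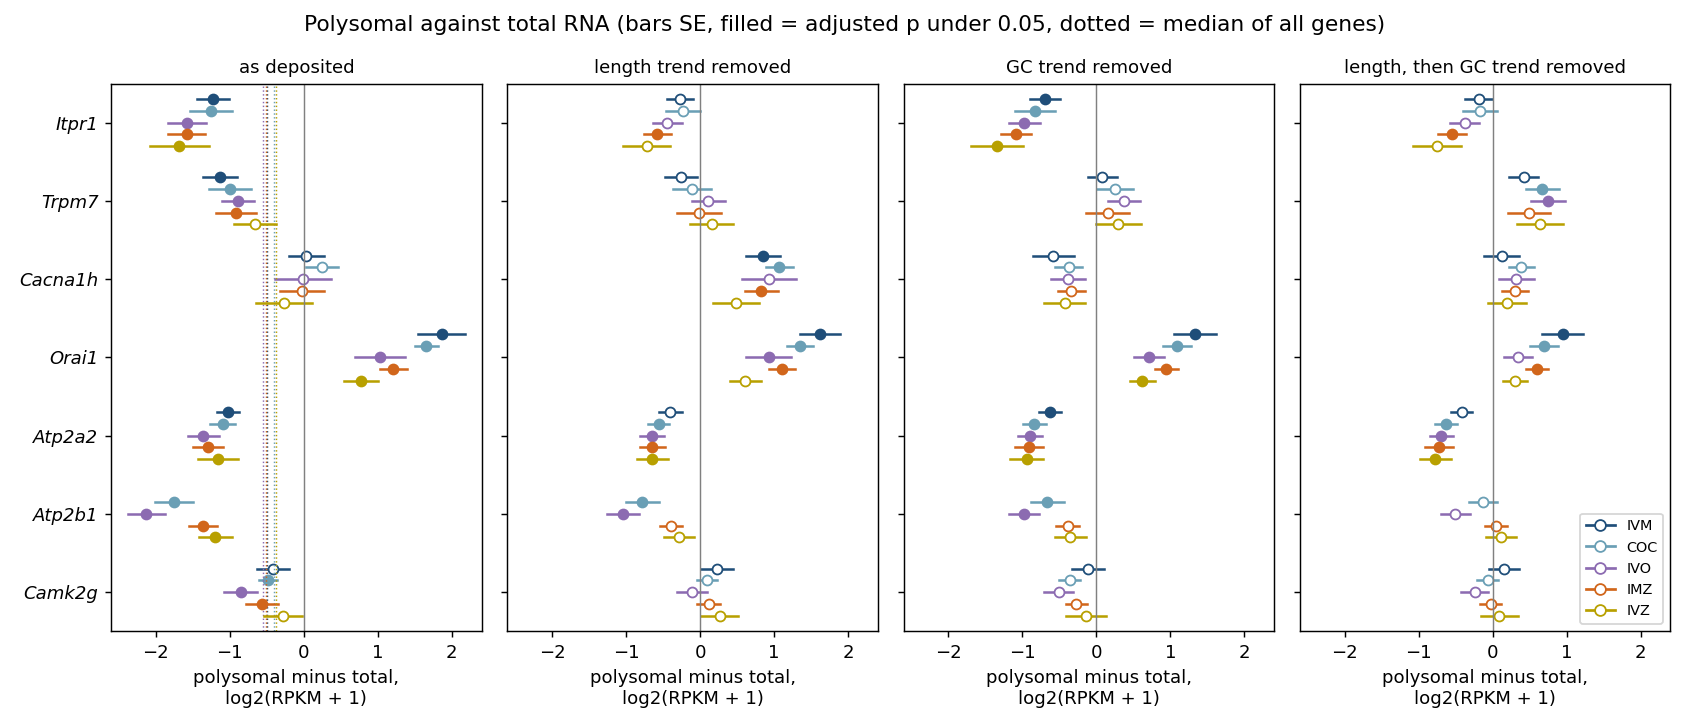
Polysomal minus total RNA in log2(RPKM + 1) for the 7 genes listed in polysomal tables, by cell type, as deposited and with the trend on exonic length, GC content or both removed; bars are SE, filled points have an adjusted p under 0.05, and dotted lines mark the median of all genes. Orai1 stays to the right of 0 and Atp2a2 to the left in all 4 panels, while Trpm7 crosses from left to right.

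**Figure D4:**
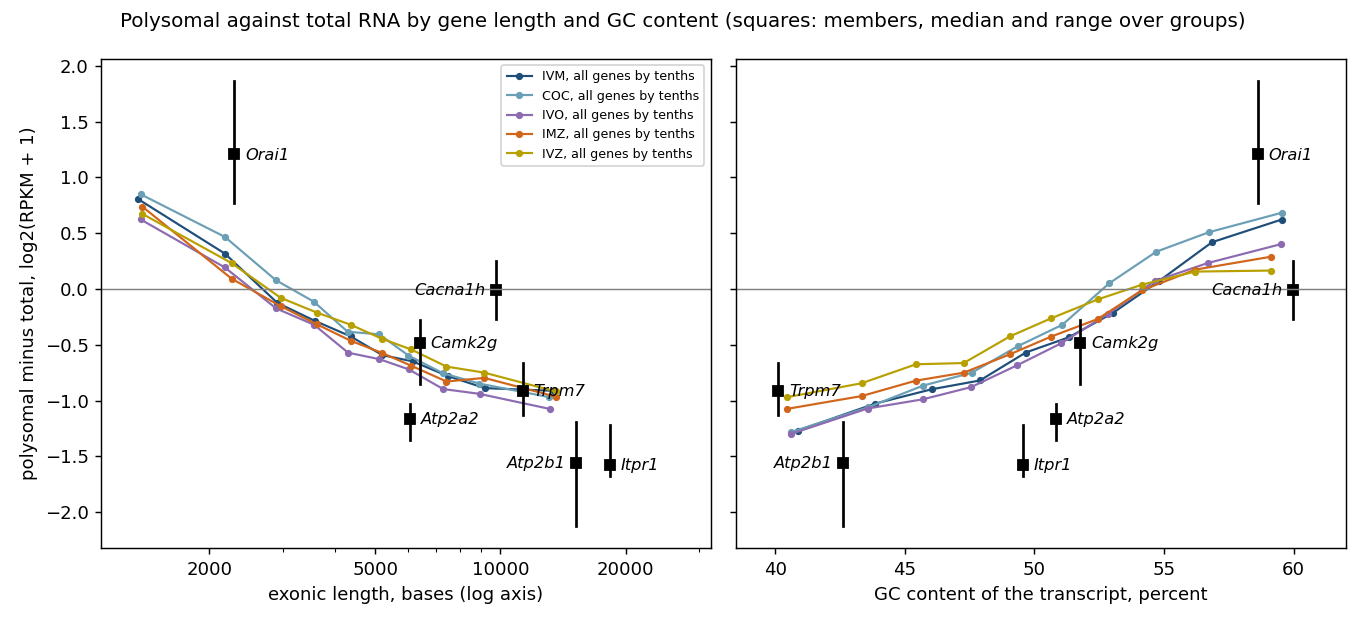
Median polysomal minus total difference of all genes in 10 equal bins of exonic length (left, log axis) and of transcript GC content (right), 1 line per cell type, with the 7 members as squares (median over cell types) and bars (range). Short and GC-rich genes are higher in polysomal RNA; Orai1 lies above both trends and Atp2a2 below both.

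Other genes of the pathway were counted from 6 lists holding 122 genes besides the members. In total RNA 73 or 74 of them were tested. Between in vitro and in vivo cells 1 was called: Calu, a calcium-binding protein of the reticulum, at 30.1 ± 3.003 RPKM in IMZ and 39.6 ± 1.84 RPKM in IVZ, a difference of -0.39 ± 0.07 (adjusted p = 0.033, limma). In IMZ against IVZ 1.66% of all genes were called, and 1.15% were called lower, so this count is read as no result about the lists. None was called in IVM against IVO, COC against IVO or IVM against COC, in which 0.509%, 0.00911% and 0.0448% of all genes were. The median difference of the lists was 0.03, 0.03, 0.01 and 0.02, beside 0.03, 0.02, 0.01 and -0.002 for all genes.

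Between oocytes and zygotes 2 of the other pathway genes were higher and 10 lower of 73 in IVZ against IVO, 6 higher and 21 lower in IMZ against IVM, and 3 higher and 20 lower in IMZ against COC. Those counts stand beside 2.1% higher and 14.1% lower of all genes in IVZ against IVO, 8.8% and 27.2% in IMZ against IVM, and 11% and 26.2% in IMZ against COC, and are read as no result about the lists. The median difference of the lists was -0.05, -0.10 and -0.04, beside -0.02, -0.06 and -0.04 for all genes. Only some of the genes that fell are named here, which gives no result about partners of the members as a set. Saraf, which restrains store-operated entry, stood at 68.5 ± 7.33 RPKM in IVO and 16.2 ± 2.65 RPKM in IVZ, and at 71.2 ± 6.15 RPKM in COC and 19.02 ± 3.63 RPKM in IMZ. Erp44, a reticulum protein that binds the release channel Itpr1, fell by 2.15 ± 0.11 log2 units in IVZ against IVO and 2.41 ± 0.08 in IMZ against COC. Stim2, a relative of Stim1, stood at 8.76 RPKM in IVO and 5.53 RPKM in IVZ and fell by 0.59 ± 0.15 (adjusted p = 0.023, limma). Atp2c2, a calcium pump of the secretory pathway, fell by 1.71 ± 0.13 in IVZ against IVO. Among the genes that rose was Ppp3r1, the regulatory subunit that binds Ppp3ca, higher by 0.33 ± 0.07 in IVZ against IVO, 0.39 ± 0.06 in IMZ against IVM and 0.34 ± 0.06 in IMZ against COC (limma adjusted p of 0.011, 0.00057 and 0.0012). Mcu, the pore of mitochondrial calcium uptake, was higher in IMZ by 0.33 ± 0.06 against IVM and 0.26 ± 0.05 against COC.

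Between fractions, 24 of 46 pathway genes in IVM, 29 of 54 in COC, 32 of 56 in IVO, 23 of 50 in IMZ and 15 of 50 in IVZ were lower in polysomal RNA, and 1, 7, 2, 6 and 3 were higher. Of all genes 38.9%, 44.3%, 45.2%, 46% and 30.1% were lower in the same order, and 14.9%, 23.4%, 13.9%, 15.1% and 10.9% higher; in IMZ and IVZ the counts of lower genes were near those shares. The median difference of the lists was -0.71, -0.62, -0.81, -0.43 and -0.40, beside -0.50, -0.40, -0.55, -0.51 and -0.38 for all genes. The values of this paragraph are as deposited, with no trend on gene length or GC content removed. Canx and Calu, 2 further proteins of the reticulum, were lower in all 5 groups. Canx measured 30.2 ± 4.70 RPKM in polysomal and 98.5 ± 7.31 RPKM in total RNA of IVM, a difference of -1.68 ± 0.17. Ppp3r1 was lower in all 5 as well, by 0.88 ± 0.16 to 1.55 ± 0.24. Fzr1, an activator of the anaphase-promoting complex, was higher in 4 groups, by 0.85 ± 0.31 to 1.247 ± 0.14.

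Across the 20 total RNA libraries, the genes most like each member in log2(RPKM + 1), among 10660 genes listed in all total RNA tables, were Tarbp1 and Vps8 for Itpr1 (Pearson r of 0.86 and 0.81), Hsf2 and Tuft1 for Trpm7 (0.91 and 0.90), Myo1d and Samd4b for Cacna1h (0.95 and 0.95), and Med17 and Tspan14 for Orai1 (0.93 and 0.93). For the pumps they were Helq and Csrnp2 for Atp2a2 (0.94 and 0.93) and Plagl1 and Eif4g3 for Atp2b1 (0.82 and 0.76), and for the calcium readers mt-Cytb and Upf3a for Camk2g (0.94 and 0.94) and Tm9sf3 and Etf1 for Ppp3ca (0.89 and 0.89). These values describe 20 libraries that share cell types and library composition. Among the members, Atp2a2 and Ppp3ca varied most alike (r = 0.89) and Camk2g and Orai1 most oppositely (r = -0.86). The mitochondrial transcript mt-Cytb followed Camk2g library by library: in IVO it measured 547 and 574 RPKM in replicates 1 and 3, in which Camk2g was 123 and 124 RPKM, and 402 and 352 RPKM in replicates 2 and 4, in which Camk2g was 103 and 105 RPKM. The mean of mt-Cytb was 341 RPKM in COC and 626 RPKM in IMZ, between which Camk2g was called higher; its part in that result was not tested.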

How the data were processed

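Oocytes and zygotes of 5 kinds were sequenced as total and polysomal RNA, in 10 groups of 4 libraries, after library preparation with a stranded SMARTer kit for very small inputs of total RNA, per the labels' protocols. The submitters' processing notes name DRAGEN and the build GRCm39; no source used here gives the annotation, the strand setting or the authors' test. The authors deposited 8 tables, which per the file headers hold RPKM values of 8 libraries each. The deposited tables also give the authors' log2 fold change, a signed fold change (a score, not used here) and the authors' p-value. Genes are listed only from 0.2 RPKM in each library of a table. A library present in several tables had identical values in them, so groups of different tables were compared directly.

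No counts were used. Each comparison was fitted across all genes listed for its groups by limma 3.58.1 under R 4.3.3, taking log2(RPKM + 1), a trended prior variance and no covariate, and p-values were adjusted by Benjamini-Hochberg and called under 0.05; intervals are 95%. Replicates were not paired. Fits were tested on simulated data. Depth was recovered from the spacing of low RPKM values and GENCODE M21 exonic lengths (build GRCm38, used for length, GC content and sequence, with no coordinates); for low genes the pseudocount of 1 understates a change. Trends on length and GC content were removed per library by a lowess fit; this was chosen after seeing the data. The other alternatives were median-of-ratios scaling, a pseudocount of 0.1, a mean of at least 1 RPKM, a replicate block, no variance trend, each library left out in turn, and omission of 2 polysomal libraries excluded by the authors. The members, lists and tests were chosen with earlier results of these data known. Named genes are the 9 members, genes of the 6 lists that were called or had one of the 2 smallest p-values of their list, and the 2 genes most like each member, leaving out predicted genes.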

Additional observations from a re-analysis of the deposited data

Results flagged for a closer look

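Of 76 sets of 4 libraries (a member in 1 cell type and fraction), 3 had a library far from the other 3, where chance flags about 1 in 20. Trpm7 reached 7.87 RPKM in total RNA of IVM replicate 2, with the others at 5.33 to 5.69 RPKM; without that library the IVM libraries still lay above all COC and IVO libraries. Camk2g reached 95.6 RPKM in polysomal RNA of IVO replicate 2, with the others at 53.5 to 55.1 RPKM. Trpm7 fell to 1.13 RPKM in polysomal RNA of IVO replicate 4, with the others at 1.78 to 1.88 RPKM.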

How the results depend on the processing

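The number of members called kept within 1.5 times its value under a pseudocount of 0.1, a mean of at least 1 RPKM, no variance trend and omission of the libraries the authors excluded, in all comparisons in which each was run. The authors' p-values, adjusted, called 1 member (Trpm7) in IVM against IVO and 1 in IVM against COC, both in total RNA, in place of none. Median-of-ratios scaling called 1 in IVZ against IVO (none before) and 4 in IMZ against IVM (2 before), as did removal of the GC trend and of both trends; in IVZ against IVO this was Ppp3ca with the scaling and Cacna1h with the trends, and in IMZ against IVM Camk2g and Cacna1h besides Atp2a2 and Ppp3ca. Between fractions, the number called was 2 in IVM, 3 in IVO and 1 in IVZ with the length trend removed, 3 in IMZ with the GC trend removed, and 1 in IVM, 3 in COC, 2 in IVO, 3 in IMZ and 1 in IVZ with both removed, against 4, 6, 6, 6 and 4 in the order IVM, COC, IVO, IMZ, IVZ. These counts include Cacna1h in IVM with the length trend removed, not called before, and Trpm7 in COC and IVO with both removed, called higher where it had been lower. Leaving out 1 library gave 0 to 1 called in IMZ against IVZ, 0 to 1 in IVZ against IVO and 1 to 4 in IMZ against IVM. Differences between fractions that were called or became called and changed sign were those of Trpm7 with the GC trend removed (0.082 in IVM, 0.25 in COC, 0.38 in IVO, 0.16 in IMZ), with the length trend removed (0.11 in IVO) and with both (0.42 in IVM, 0.67 in COC, 0.75 in IVO, 0.49 in IMZ); of Camk2g with the length trend removed (0.10 in COC, 0.12 in IMZ); of Cacna1h likewise (0.83 in IMZ); and of Atp2b1 with both removed (0.046 in IMZ, 0.12 in IVZ). The cause was not tested. In no comparison did all 4 same-numbered pairs of libraries correlate above 0.1. Some pairs did: COC and IVO replicates 2, 3 and 4 in total RNA stood at 0.37, 0.66 and 0.32, with replicate 1 at -0.18. Others were negative: IVM and IVO replicates 1, 2 and 3 in total RNA stood at -0.36, -0.66 and -0.52, with replicate 4 at 0.45. In polysomal RNA replicates 2 and 4 stood at 0.25 and 0.32 in IVM and IVO, and at 0.22 and 0.29 in IMZ and IVZ. They stood at 0.38 and 0.37 in IVZ and IVO, 0.27 and 0.31 in IMZ and IVM, and 0.15 and 0.12 in IMZ and COC. In COC and IVO they stood at -0.06 and 0.26, and in IVM and COC at 0.07 and 0.07. Pairing or a shared batch of only part of the replicates was not tested. With the replicate number as a block, 0 members were called in IMZ against IVZ in total RNA (Trpm7 at an adjusted p of 0.087) and 1 (Trpm7) in IMZ against COC, and Orai1 between fractions in IVZ had an adjusted p of 0.051; no other member was lost. The depth of 10 of the 20 polysomal libraries is unknown, and the wide spread between polysomal libraries limits what that fraction can show.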
